A study of Mus musculus with 6 samples.

Results

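The respiratory chain and the ATP synthase of the mitochondrion are built from many proteins, most of them encoded in the nucleus. The genes described here are the entries of the deposited expression table whose symbol begins with Nduf, Uqcr, Cox4 to Cox8 or Atp5 and does not carry the pseudogene ending -ps. The rule reads the symbol alone, but it was chosen with earlier results of these data known. It gave 90 of the 25711 entries, namely 49 for complex I, 8 for complex III, 16 for complex IV and 17 for the ATP synthase. Of the 90, GENCODE M21 annotates 86 as protein coding, 3 as processed pseudogenes (Cox6c2, Ndufb4c and Ndufs6b), and 1, Ndufb1, as a noncoding RNA from a bidirectional promoter. RNA was sequenced from bone marrow-derived macrophages of wild-type mice, which are cells grown out of marrow in culture. One group of 3 libraries came from macrophages given CCL7, a chemokine that draws monocytes to inflamed tissue, at 500 ng/ml for 24 h. The other group, Ctrl, held 3 libraries from control macrophages of the same genotype at 24 h. No strain, sex, age or vehicle is named in the labels, nor is it stated that replicates were separate cultures. The p-values therefore measure the spread between these libraries, which may be technical.

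Complex I takes electrons from NADH, complex II takes them from succinate, and both pass them through ubiquinone to complex III, cytochrome c and complex IV, where oxygen is reduced. Complexes I, III and IV pump protons out of the matrix, and the ATP synthase, also called complex V, uses the returning protons to make ATP. A few subunits are made inside the mitochondrion from its own DNA, so the assembled complexes mix products of both genomes. In macrophages, inflammatory activation is known to go with a shift from mitochondrial respiration towards glycolysis.

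The libraries held 34860523 to 51161400 counts. Levels are given below as CPM, the counts scaled to library totals and to edgeR's TMM factors, and as FPKM, the authors' counts per kilobase of gene, scaled to the total count of the library. Macrophage markers were all detected, 10 of 10, with a summed level of 37267 to 39635 CPM in CCL7 libraries and 16628 to 17341 CPM in Ctrl libraries. Neutrophil markers (7 of 8, Mpo not analysed here) summed to 10.7 to 16.1 CPM in CCL7 libraries and 0.879 to 1.08 CPM in Ctrl libraries, of which S100a8 alone averaged 12.2 CPM in CCL7 and 0.813 CPM in Ctrl libraries. The summed markers of dendritic cells, lymphocytes, chondrocytes, stromal cells and erythroid cells were at most 3.37 CPM in any library, with Cd3e, Nkg7, Ncr1, Sox9, Col9a1, Lum, Hba-a1 and Hbb-bs of these lists not analysed here. Endothelial markers (4 of 4) summed to 14.4 to 16.0 CPM in CCL7 libraries and 20.4 to 24.6 CPM in Ctrl libraries. Most of it came from Kdr (13.9 CPM in CCL7 and 21.96 CPM in Ctrl). Pecam1 was higher, at 0.742 CPM in CCL7 and 0.156 CPM in Ctrl (adjusted p = 2.97e-06, edgeR without a filter on low genes). Cdh5 (0.693 CPM in CCL7 and 0.473 CPM in Ctrl) and Tek (0.014 CPM in CCL7 and 0.062 CPM in Ctrl) did not pass in that fit (adjusted p of 0.216 and 0.427). The part of these marker shifts in the results below was not tested. CCL7 replicate 2 stood apart: it was the highest of the 3 CCL7 libraries for 74 of the 86 members tested (86.0%), against 40.1% of all genes tested. Counts are therefore given below with and without it where it matters.

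Most nuclear-encoded subunits were higher in CCL7-treated macrophages, by amounts that were mostly below 1.5-fold. Of the 90 members, 86 had a mean of at least 1 FPKM and were tested with edgeR together with 11143 genes in all. With CCL7, 69 of the 86 were higher at an adjusted p under 0.05 (80.2%), 3 were lower and 14 did not pass. Among all genes tested, 33.9% were higher, 35.2% were lower and 69.1% changed in either direction. The lower members were Cox7a1, Ndufb11 and Ndufaf7. The median log2 change of the members was 0.40, which is 1.32-fold, whereas the median of all genes tested was -0.01. Above 0 lay 79 of the 86 changes. In bulk RNA, more cells of a type and more RNA per cell cannot be told apart.

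The members moved within a narrow band. The interquartile range of their log2 changes was 0.31, against 0.71 for all genes tested. Of the 86, 18 rose by 1.5-fold or more, a larger share than the 14.5% of all genes. By 2-fold or more 3 rose, a smaller share than the 7.71% of all genes. Those 3 were Cox6a2, Ndufaf4 and Ndufb4c. In 69 members every CCL7 library lay above every Ctrl library, as it did for 35.9% of all genes. In 3 members every CCL7 library lay below every Ctrl library, as it did for 37.8% of all genes, and in 14 members the groups overlapped. Without CCL7 replicate 2, 68 members were higher and 4 were lower, with a median log2 change of 0.36.

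**Figure D1:**
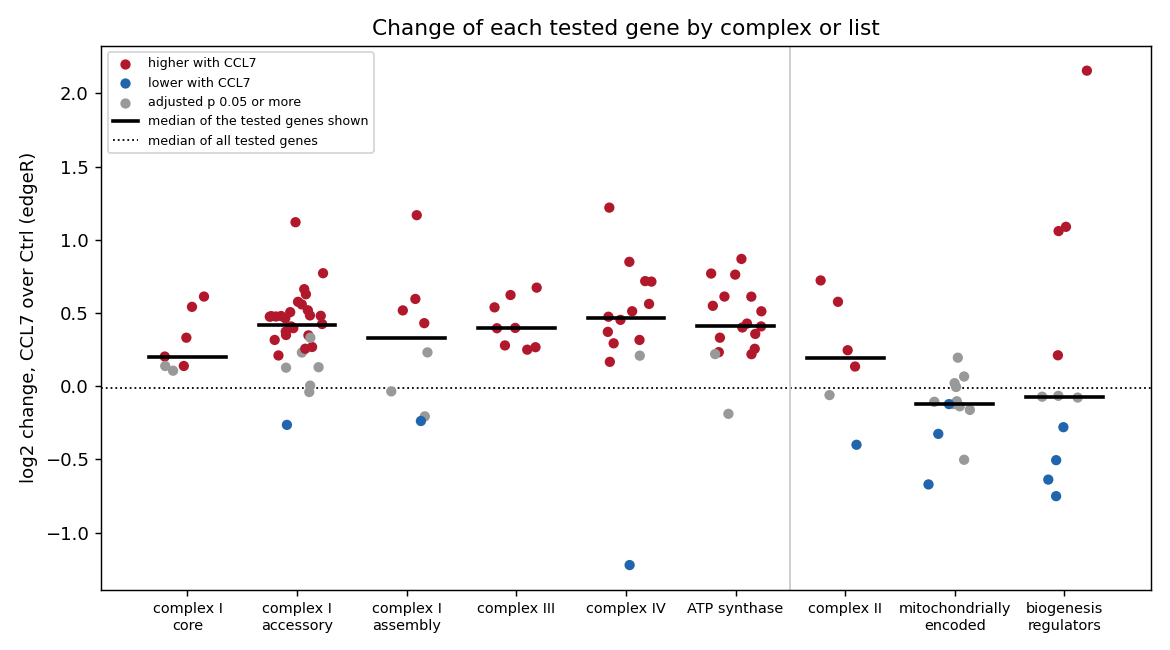
Log2 change (CCL7 over Ctrl, vertical axis) of each tested gene, with the members by complex left of the grey line and 3 lists of other genes right of it; points are genes coloured by call, thick bars are group medians and the dotted line is the median of all genes tested. Every complex III member lies above the dotted line, and the lowest point, in complex IV, is Cox7a1 at -1.22.

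These small changes depend on how the libraries are scaled. Deposited totals as the only scaling moved the median of all genes from -0.01 to -0.25. The members' median was then 0.17, with 42 members higher and 8 lower, against 20.7% of all genes higher and 53.4% lower. The calls of 21 higher members were then lost with the sign kept, among them Ndufv2, Ndufa2, Ndufaf5, Ndufaf6, Uqcrh, Uqcr11, Uqcrfs1, Cox4i1 and Atp5j, and others turned in sign. The distance between the members' median and that of all genes was 0.42 under either scaling. It could hardly differ, since a factor per library shifts all genes nearly alike. With quantile normalization and with a correction for gene length, which can change it, the distance was 0.36 each. As a share of all counts, the members took 0.719%, 0.802% and 0.729% in CCL7 replicates 1 to 3 and 0.657%, 0.640% and 0.644% in Ctrl replicates 1 to 3. The lowest CCL7 library lay above the highest Ctrl library.

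**Figure D2:**
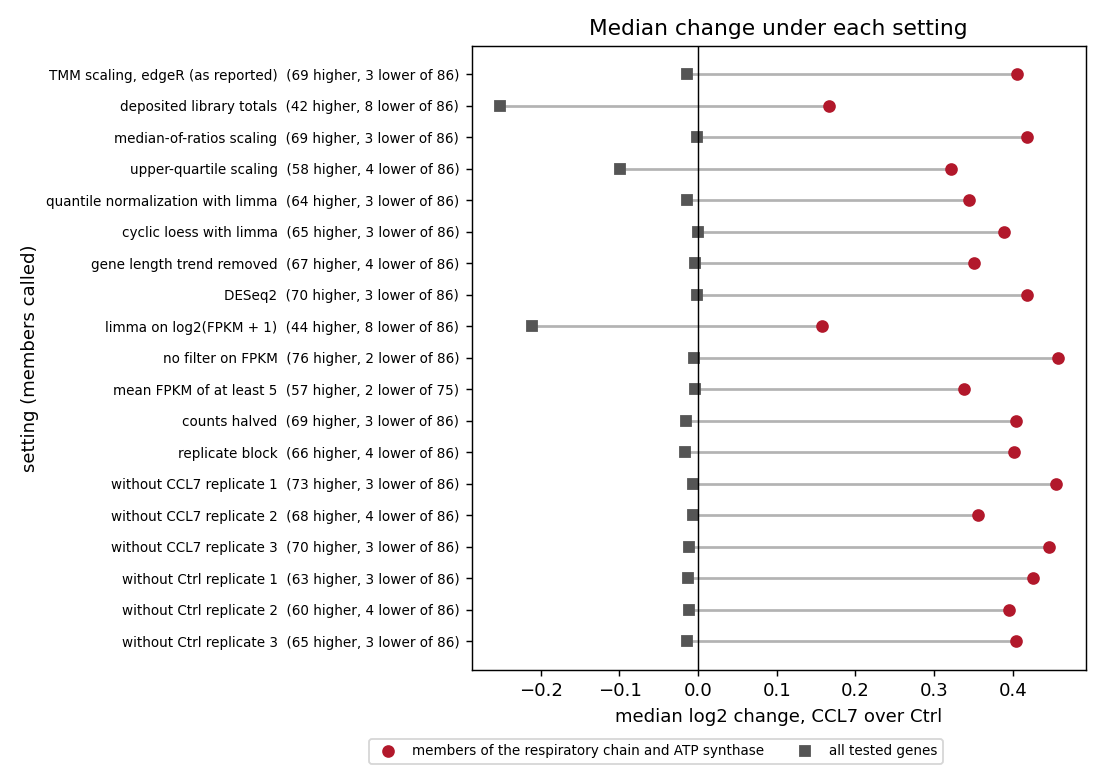
Median log2 change (CCL7 over Ctrl) of the members and of all genes tested, under the reported fit and each alternative setting. The members' median lies to the right of the median of all genes in every row, while both medians shift left with deposited library totals, to 0.17 and -0.25.

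Promoters were compared because nuclear respiratory factor 1 (NRF1), GABP and YY1 are textbook activators of many of these genes. RefSeq promoters (GRCm38.p6, 250 bases before to 50 after the annotated start) were matched by symbol for 72 of the 90 members, giving 77 promoters. The NRF1 consensus with its middle base left free, searched on both strands and shown in capitals in the stretches printed next, was in 18 of them (23.4%), against 4.60% of 32851 mouse promoters. Its exact palindromic form, which is contained in the wider one, was in 7 (9.09%), against 0.971%. The GABP core CCGGAAG was in 22.1% against 8.86%, and the YY1 motif AAGATGG in 15.6% against 6.34%. Members with the wider NRF1 form were higher with CCL7 in 15 of 17 cases (median log2 change 0.46), and those without it in 41 of 53 (median 0.37). For the exact form the counts were 5 of 7 (median 0.43) with it and 51 of 63 (median 0.43) without it. For CCGGAAG the counts were 13 of 17 (median 0.33) with the motif and 43 of 53 (median 0.43) without it. For AAGATGG they were 10 of 12 (median 0.37) and 46 of 58 (median 0.44). A match describes letters only, and binding was not measured.

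The stretches printed next show 5 of the 7 promoters with the exact form, chosen to cover members that rose and members that did not pass, and Ndufb4, whose promoter holds 3 matches of the wider form. Capitals mark matches to the wider NRF1 form on either strand, and each stretch is written on the strand of its gene.
Ndufaf4, chr4:24897933-24898032, plus strand: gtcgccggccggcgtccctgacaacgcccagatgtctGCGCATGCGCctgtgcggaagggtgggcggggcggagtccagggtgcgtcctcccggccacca
Cox6a1, chr5:115349029-115349128, minus strand: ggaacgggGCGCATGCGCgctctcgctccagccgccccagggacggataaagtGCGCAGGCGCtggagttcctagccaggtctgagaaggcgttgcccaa
Ndufa11, chr17:56717662-56717761, plus strand: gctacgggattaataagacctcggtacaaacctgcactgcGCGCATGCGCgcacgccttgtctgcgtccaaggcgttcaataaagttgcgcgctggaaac
Atp5g2, chr15:102671048-102671147, minus strand: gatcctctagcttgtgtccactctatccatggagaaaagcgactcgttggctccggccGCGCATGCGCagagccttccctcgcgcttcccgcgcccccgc
Atp5k, chr5:108434400-108434499, minus strand: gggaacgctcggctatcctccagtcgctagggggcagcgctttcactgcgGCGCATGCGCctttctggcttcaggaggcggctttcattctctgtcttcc
Ndufb4, chr16:37654369-37654568, minus strand: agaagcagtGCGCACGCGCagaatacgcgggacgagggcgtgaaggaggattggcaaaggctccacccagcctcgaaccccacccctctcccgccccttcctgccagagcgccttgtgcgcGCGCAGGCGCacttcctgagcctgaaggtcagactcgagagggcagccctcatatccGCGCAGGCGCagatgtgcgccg
The same exact form stands in Ndufaf4, which had the second highest log2 change of all members at 1.17, in Cox6a1 at 0.51 and in Ndufa11 at 0.48. It also stands in Atp5k, whose log2 change of 0.22 did not pass (adjusted p = 0.102, edgeR), and in Atp5g2, whose log2 change was -0.19 (adjusted p = 0.0742, edgeR). Without CCL7 replicate 1 Atp5k was higher (0.35, adjusted p = 0.00469), and with deposited totals its log2 change was -0.02. Ndufb4, with its 3 matches, had a log2 change of 0.56.

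Complex I core subunits, the 7 nuclear-encoded proteins that carry the flavin and the iron-sulphur clusters or line the quinone site, had the lowest median log2 change of the 6 groups of members. With CCL7, 5 of 7 were higher and none was lower by edgeR (0 at an unadjusted p under 0.05, 0 by DESeq2 and 1 by limma on log2(FPKM + 1)). The median log2 change was 0.20, which became -0.03 with deposited totals. Ndufs3 (chr2:90894634-90904827) and Ndufs7 (chr10:80249121-80256794), neighbours in the arm that leads electrons to quinone, changed most. Ndufs3 had 61.7, 67.0 and 65.0 CPM in CCL7 libraries and 41.0, 41.1 and 44.5 CPM in Ctrl libraries, which is a log2 change of 0.61 ± 0.05 (standard error, SE; n = 3 in each group; adjusted p = 3.96e-06, edgeR). Ndufs7 had 55.0, 57.4 and 58.1 CPM in CCL7 libraries and 40.2, 39.3 and 37.6 CPM in Ctrl libraries, a log2 change of 0.54 ± 0.04 (adjusted p = 5.47e-06, edgeR). For both genes every CCL7 library was above every Ctrl library.

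Ndufs8, an iron-sulphur subunit, had a log2 change of 0.14 ± 0.09 (adjusted p = 0.131, edgeR) with overlapping groups, and 0.23 without CCL7 replicate 1 (adjusted p = 0.0119). Ndufv2, Ndufs1 and Ndufv1, which form the NADH-oxidising end, had log2 changes of 0.33, 0.20 and 0.14. With deposited totals Ndufs1 turned to -0.03 and Ndufv1 to -0.10, and neither passed with quantile normalization (adjusted p of 0.0532 and 0.352). Ndufv1 (adjusted p = 0.0417, edgeR) was also lost without CCL7 replicate 2 or 3 and without Ctrl replicate 1 or 2 (adjusted p of 0.0531 to 0.162).

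The accessory subunits of complex I surround the core and stabilise it. Of 34 entries, 32 were tested, 25 were higher, 1 was lower and 6 did not pass, with a median log2 change of 0.42 (0.18 with deposited totals). The highest changes were those of Ndufb4c, a processed pseudogene entry with few reads, and Ndufb1, a small membrane-arm subunit. Ndufb1 had 36.7, 50.8 and 42.1 CPM in CCL7 libraries and 26.9, 25.7 and 23.3 CPM in Ctrl libraries, a log2 change of 0.77 ± 0.15 (adjusted p = 0.000111, edgeR). Every CCL7 library was above every Ctrl library, with CCL7 replicate 2 highest. Ndufb1 shares 147 exon bases with Cpsf2 on the other strand, which was itself higher with a log2 change of 0.26. Ndufb4c had 1.02, 1.04 and 1.12 CPM in CCL7 libraries and 0.439, 0.579 and 0.423 CPM in Ctrl libraries, from 135 and 61 counts (log2 change 1.12 ± 0.13, adjusted p = 0.0021, edgeR). Reads of Ndufb4c and of its parent Ndufb4 may be split between the entries, so its value is uncertain.

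Ndufb11 was the accessory subunit that fell. This X-linked membrane-arm subunit (chrX:20615326-20617619) had 41.3, 48.9 and 41.9 CPM in CCL7 libraries and 49.8, 53.4 and 55.4 CPM in Ctrl libraries. All CCL7 libraries were below all Ctrl libraries, with CCL7 replicate 2 only just so. The log2 change was -0.26 ± 0.09 (adjusted p = 0.00896, edgeR), and -0.35 without CCL7 replicate 2. Its exons share 117 bases with Rbm10 on the other strand, whose log2 change was 0.02.

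Among other accessory subunits, Ndufab1, the mitochondrial acyl carrier protein, had 35.9, 36.1 and 30.4 CPM in CCL7 libraries and 25.4, 23.7 and 24.7 CPM in Ctrl libraries. The groups were apart, with a log2 change of 0.48 ± 0.09 (adjusted p = 0.000255, edgeR). Ndufa2, the accessory subunit with the highest FPKM (119 in CCL7 and 107 in Ctrl; per kilobase of the principal transcript Ndufa4 was higher), rose by 0.40 ± 0.10 on the log2 scale (adjusted p = 0.00137, edgeR). Ndufv3, at the NADH-oxidising end, had overlapping groups and a log2 change of -0.04 ± 0.06 (adjusted p = 0.586, edgeR). The other members that did not pass were Ndufa3, Ndufa4, Ndufb3, Ndufb10 and the pseudogene entry Ndufs6b. Without CCL7 replicate 1, Ndufa3 (0.36), Ndufb3 (0.20) and Ndufb10 (0.19) were higher.

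Ndufa4 was first assigned to complex I and is now held to be a subunit of complex IV. It had 88.1, 104 and 90.3 CPM in CCL7 libraries and 97.0, 93.3 and 90.8 CPM in Ctrl libraries. The groups overlapped, and the log2 change was 0.00 ± 0.08 (adjusted p = 0.956, edgeR). With deposited totals it was -0.23, with an adjusted p of 0.00786. Ndufa4l2, its paralogue known from hypoxic cells, had 2 counts in all CCL7 libraries together and 4 in all Ctrl libraries together, and was too low to test. Ndufb2, another accessory subunit, was listed at 0.481 FPKM in CCL7 and 0.680 FPKM in Ctrl libraries (376 and 440 counts), below the level set for testing.

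**Figure D3:**
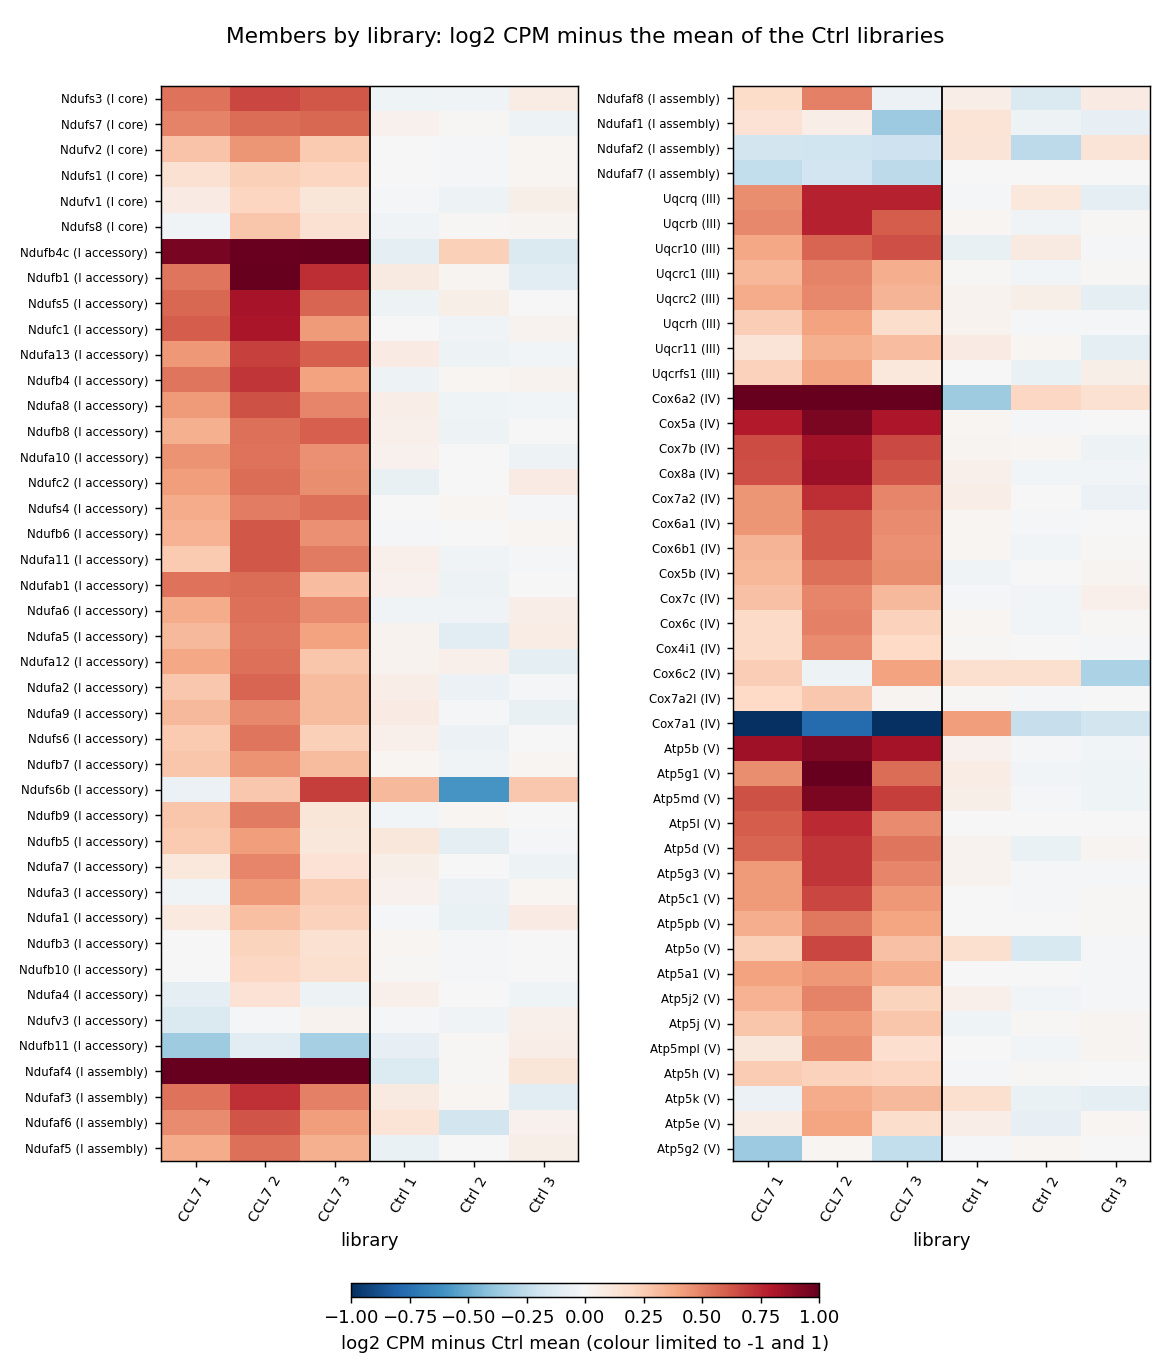
Log2 CPM of 85 tested members in each library, minus the mean of its Ctrl libraries, with the 3 CCL7 libraries left of the 3 Ctrl libraries and members ordered by log2 change within each complex. Colours are limited to -1 and 1. CCL7 replicate 2 is the highest CCL7 library in 73 of the 85 rows shown.

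The 8 Ndufaf genes encode assembly factors, which help to build complex I but are not part of it. They were split: 4 were higher, 1 was lower and 3 did not pass, against 33.9% higher and 35.2% lower of all genes tested. Ndufaf4 (chr4:24898083-24905001), whose promoter is printed above, had 27.5, 29.8 and 26.0 CPM in CCL7 libraries and 11.2, 12.5 and 13.4 CPM in Ctrl libraries. Every CCL7 library was well above every Ctrl library, and the log2 change was 1.17 ± 0.09 (adjusted p = 5.46e-07, edgeR). Ndufaf3, which is known to act together with Ndufaf4, had 14.0, 15.9 and 13.6 CPM in CCL7 libraries and 10.2, 9.70 and 8.85 CPM in Ctrl libraries (log2 change 0.60 ± 0.09, adjusted p = 0.000207, edgeR). Ndufaf5 and Ndufaf6 were higher by 0.43 and 0.52 on the log2 scale.

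Ndufaf7, a methyltransferase that acts in complex I assembly, went the other way. It had 14.0, 14.5 and 13.8 CPM in CCL7 libraries and 16.5, 16.7 and 16.7 CPM in Ctrl libraries. The groups did not overlap, and the log2 change was -0.24 ± 0.02 (adjusted p = 0.00737, edgeR). The call was lost with quantile normalization (-0.09, adjusted p = 0.234), cyclic loess (-0.11, adjusted p = 0.151) and no filter on low genes (-0.19, adjusted p = 0.10). Ndufaf2, a late assembly factor, had a log2 change of -0.21 ± 0.13 (adjusted p = 0.164, edgeR), which without Ctrl replicate 2 was -0.33 (adjusted p = 0.0248), and Ndufaf1, an early factor of the membrane arm, -0.03 ± 0.17 (adjusted p = 0.82, edgeR).

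All 8 complex III genes were higher with CCL7, with log2 changes from 0.25 to 0.67 and a median of 0.40. None was lower by edgeR, DESeq2 or limma on log2(FPKM + 1), and 0 were lower at an unadjusted p under 0.05. Deposited totals left 5 of the 8 higher, with a median of 0.16. The core proteins Uqcrc1 and Uqcrc2 hold up the part of the complex in the matrix. Uqcrc1 had 179.6, 201 and 183 CPM in CCL7 libraries and 144, 140.3 and 144 CPM in Ctrl libraries (log2 change 0.40 ± 0.05, adjusted p = 8.67e-05, edgeR). Uqcrc2 had 103, 112 and 101 CPM in CCL7 libraries and 81.8, 83.1 and 75.3 CPM in Ctrl libraries (log2 change 0.40 ± 0.06, adjusted p = 0.000158, edgeR). For both, all CCL7 libraries were above all Ctrl libraries.

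The small subunits of complex III spanned the range. Uqcrq, which lies beside cytochrome b, had 79.3, 98.0 and 98.0 CPM in CCL7 libraries and 56.6, 61.8 and 54.0 CPM in Ctrl libraries, and changed most, by 0.67 ± 0.12 on the log2 scale (adjusted p = 5.27e-05, edgeR). Uqcrb followed with 0.62 ± 0.08, and Uqcr10, the complex III member with the highest FPKM (102 in CCL7 and 82.8 in Ctrl), with 0.54 ± 0.09. Per kilobase of the principal transcript Uqcrh was above Uqcr10, at 190 CPM against 149 CPM in CCL7 and 156 CPM against 103 CPM in Ctrl libraries. Uqcrfs1, the Rieske iron-sulphur protein that moves electrons to cytochrome c1, had 85.9, 96.5 and 78.7 CPM in CCL7 libraries and 73.5, 70.0 and 76.0 CPM in Ctrl libraries. CCL7 replicate 3 lay just above Ctrl replicate 3, and the log2 change was 0.25 ± 0.09 (adjusted p = 0.011, edgeR), which no longer passed without Ctrl replicate 2 (0.22, adjusted p = 0.0537). Uqcr11 changed by 0.27 ± 0.09 (adjusted p = 0.00796, edgeR). Neither passed with upper-quartile scaling (adjusted p of 0.0827 for Uqcrfs1 and 0.0546 for Uqcr11).

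In complex IV, cytochrome c oxidase, 14 of 16 entries were tested, 12 were higher, 1 was lower and 1 did not pass. The median log2 change was 0.46 (0.23 with deposited totals). Cox5a (chr9:57521274-57532426), a subunit on the matrix side, had 101, 112 and 102 CPM in CCL7 libraries and 59.1, 57.4 and 58.2 CPM in Ctrl libraries. The groups were far apart, with a log2 change of 0.85 ± 0.05 (adjusted p = 2.07e-07, edgeR). Cox8a, a small membrane subunit and the member with the highest FPKM over all libraries (246 in CCL7 and 177 in Ctrl), had 158, 183 and 156 CPM in CCL7 libraries and 104, 98.8 and 99.1 CPM in Ctrl libraries (log2 change 0.71 ± 0.08, adjusted p = 5.14e-06, edgeR). The other forms of subunit 8, Cox8b and Cox8c, were not analysed here.

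Several complex IV subunits have isoforms for particular tissues, and for subunits 4, 6a and 6b the widely expressed form made up nearly all of the family's RNA in these macrophages. Cox6a1, the widely expressed form of subunit 6a, had 153, 173 and 156 CPM in CCL7 libraries and 114, 111 and 112 CPM in Ctrl libraries (log2 change 0.51 ± 0.05, adjusted p = 1.63e-05, edgeR). Cox6a2, the heart and muscle form, had 1.99, 2.65 and 1.95 CPM in CCL7 libraries and 0.698, 1.08 and 1.03 CPM in Ctrl libraries, from 279 and 118 counts. Its groups did not overlap, and its log2 change of 1.22 ± 0.23 (adjusted p = 0.000829, edgeR) was the highest of all members, yet it gave only 1.39% of the family's FPKM in CCL7 and 0.851% in Ctrl libraries. Cox6a2 shares 70 exon bases with Itgad on the other strand, which had 18 counts in CCL7 and 55 in Ctrl libraries.

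The muscle form of subunit 7a went down. Cox7a1 (chr7:30184144-30186078) had 0.508, 0.794 and 0.574 CPM in CCL7 libraries and 1.94, 1.20 and 1.24 CPM in Ctrl libraries, from 79 and 180 counts. All CCL7 libraries were below all Ctrl libraries, and the log2 change was -1.22 ± 0.27 (adjusted p = 0.0031, edgeR). Cox7a2, the widely expressed form, had 90.4, 111 and 93.3 CPM in CCL7 libraries and 69.6, 66.3 and 63.7 CPM in Ctrl libraries (log2 change 0.56 ± 0.10, adjusted p = 9.26e-05, edgeR). Cox7a2l, which helps complexes III and IV to join in supercomplexes, had 209.5, 220.0 and 186 CPM in CCL7 libraries and 185, 181 and 183 CPM in Ctrl libraries. Its log2 change of 0.17 ± 0.07 passed narrowly (adjusted p = 0.0362, edgeR) and turned to -0.07 with deposited totals and -0.02 with quantile normalization. The call also needed CCL7 replicate 1 and each Ctrl library, without which the adjusted p was 0.0779 to 0.11. Within the family, Cox7a2 gave 42.6 ± 2.12% of FPKM in CCL7 and 35.8 ± 0.864% in Ctrl libraries (SD, n = 3 each), and Cox7a2l 56.9 ± 2.19% and 62.8 ± 1.12%.

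Cox4i1, the common form of subunit 4, had 285, 345 and 287 CPM in CCL7 libraries and 251, 250.2 and 247 CPM in Ctrl libraries (log2 change 0.29 ± 0.09, adjusted p = 0.00431, edgeR). All CCL7 libraries were above all Ctrl libraries, CCL7 replicate 2 by most. The call was lost with quantile normalization (0.12, adjusted p = 0.118) and cyclic loess (0.15, adjusted p = 0.0938). Cox4i2, the lung form, had 5 counts in CCL7 and 15 in Ctrl libraries and was too low to test. Cox6b1, the common form of subunit 6b, rose by 0.47 ± 0.08 on the log2 scale (adjusted p = 0.000117, edgeR). Cox6b2, the testis form, had 14 counts in CCL7 and 57 in Ctrl libraries, below the level set for testing. A fit without that level gave it a log2 change of -1.98 ± 0.26 (adjusted p = 0.00193, edgeR). The rare forms Cox4i2, Cox6b2 and Cox7a1 were thus at lower counts with CCL7 and Cox6a2 at higher counts.

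**Figure D4:**
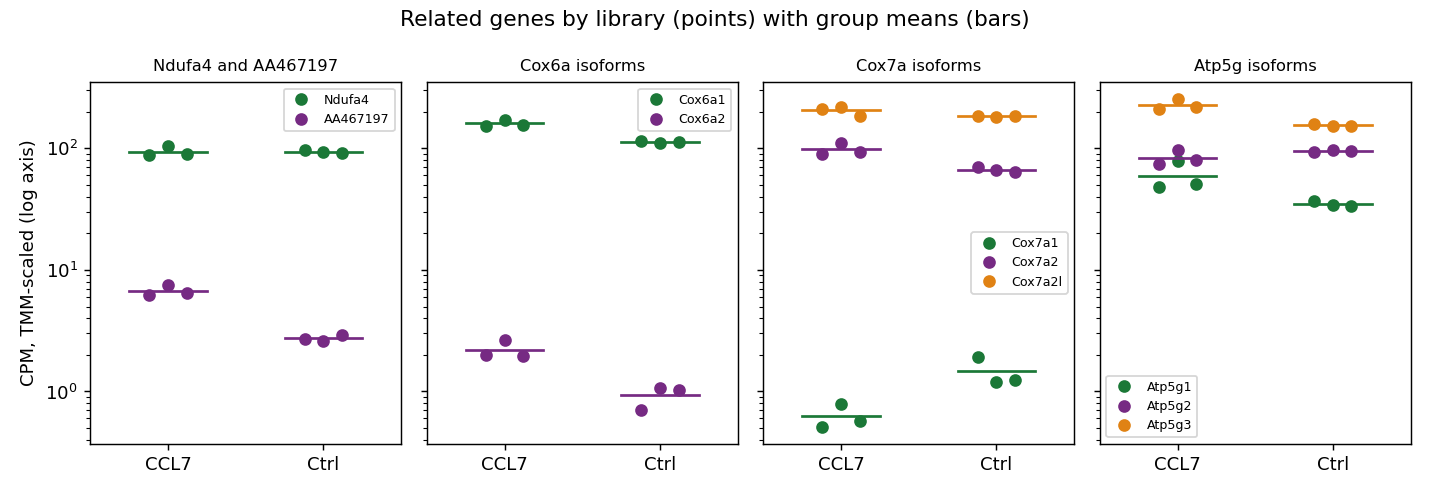
CPM (vertical log axis) of each library, as points with group means as bars, for Ndufa4 with the related gene AA467197 and for 3 isoform families, with CCL7 libraries left of Ctrl libraries. The rare forms Cox6a2 and Cox7a1 lie far below the common forms and move in opposite directions, and Atp5g2 overlaps between groups while Atp5g1 and Atp5g3 do not.

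ATP synthase members changed by -0.19 to 0.87 on the log2 scale. Of 17 tested, 15 were higher, none was lower and 2, Atp5g2 and Atp5k, did not pass, with a median of 0.41 (0.17 with deposited totals). In the lower direction 0 stood at an unadjusted p under 0.05, 0 by DESeq2 and 1 by limma on log2(FPKM + 1), and Atp5g2 was lower by edgeR without CCL7 replicate 2. Together they took 0.319%, 0.347% and 0.319% of the counts in CCL7 libraries and 0.269%, 0.262% and 0.263% in Ctrl libraries, so the groups were apart on deposited totals as well. The complex I members together did not separate this way, with 0.190%, 0.214% and 0.196% of the counts in CCL7 libraries and 0.191%, 0.185% and 0.188% in Ctrl libraries.

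Atp5b (chr10:128083273-128090391), the catalytic beta subunit, had the lowest adjusted p of all members. It had 1161, 1225 and 1152 CPM in CCL7 libraries and 665, 638 and 633 CPM in Ctrl libraries. The groups were far apart, with a log2 change of 0.87 ± 0.04 (adjusted p = 4.73e-08, edgeR), which quantile normalization lowered to 0.46. Atp5a1, the alpha subunit that pairs with it in the same ring, had 749.9, 763 and 730.0 CPM in CCL7 libraries and 569, 567 and 563 CPM in Ctrl libraries. Its log2 change was 0.40 ± 0.02 (adjusted p = 1.05e-05, edgeR), which quantile normalization lowered to 0.04 (adjusted p = 0.38), ending the call. The remaining soluble-part subunits Atp5c1 (gamma), Atp5d (delta) and Atp5e (epsilon) changed by 0.51, 0.61 and 0.22. Atp5e passed narrowly (adjusted p = 0.0306, edgeR) and its sign turned with deposited totals, to -0.02. Without Ctrl replicate 2 or 3 it did not pass (0.18, adjusted p = 0.123, and 0.23, adjusted p = 0.0683).

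The 3 Atp5g genes encode the same mature c subunit of the proton-driven ring, each with its own import signal, and they moved apart. Atp5g1 had 48.2, 78.9 and 51.2 CPM in CCL7 libraries and 36.7, 34.0 and 33.7 CPM in Ctrl libraries, with CCL7 replicate 2 well above the others. Its log2 change was 0.77 ± 0.23 (adjusted p = 0.00149, edgeR), and 0.51 without that library. Atp5g3 had 209.8, 256 and 218 CPM in CCL7 libraries and 159.5, 154 and 154 CPM in Ctrl libraries (log2 change 0.55 ± 0.09, adjusted p = 6.16e-05, edgeR). Atp5g2 had 73.8, 96.4 and 79.9 CPM in CCL7 libraries and 93.4, 96.1 and 95.2 CPM in Ctrl libraries. Only CCL7 replicate 2 reached the Ctrl range. The log2 change of Atp5g2 was -0.19 ± 0.11 (adjusted p = 0.0742, edgeR), and -0.31 without that library (adjusted p = 1.69e-05, edgeR). It was also lower with upper-quartile scaling (-0.27), quantile normalization (-0.29), cyclic loess (-0.25) and deposited totals (-0.43).

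By FPKM, Atp5g3 made up 62.9 ± 1.36% of the 3 Atp5g genes in CCL7 and 52.8 ± 0.708% in Ctrl libraries (SD, n = 3 each). Atp5g2 made up 29.9 ± 0.450% in CCL7 and 41.9 ± 0.906% in Ctrl libraries, and Atp5g1 7.18 ± 1.07% and 5.24 ± 0.207%. Each share was apart between the groups, and a share within a library does not depend on its scaling. The Atp5g2 promoter carries the same exact NRF1 form as those of Ndufaf4 and Cox6a1 printed above.

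Levels per length differed more between genes than between groups. The tested members ranged from 1.92 to 211 FPKM over all libraries, and the highest were Cox8a (246 in CCL7, 177 in Ctrl), Atp5b (256 in CCL7, 165 in Ctrl) and Atp5a1 (219.6 in CCL7, 196 in Ctrl). The length behind these FPKM equals the summed exons of all GENCODE M21 transcripts of the gene in 90 of 90 members. It exceeds the length of the principal transcript by a median of 1.56 times and by up to 11.8 times, so FPKM understates some members more than others. Per kilobase of the principal transcript Atp5b ranked 1 and Cox8a 5. Across the 86 tested members, Spearman's rho of the log2 change was 0.05 with gene length and 0.03 with FPKM, given as a description of genes that share libraries.

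Many of these genes lie close to others, and whether reads were counted by strand is not stated. Of the 90 members, 34 share exon bases with another gene. Among them 27 of 32 tested were higher and 1 was lower (median log2 change 0.41). Among the 56 that share none, 42 of 54 tested were higher and 2 were lower (median 0.40). Some partners moved against the member: Atp5j, a stalk subunit, changed by 0.33 while Gabpa, which shares 397 bases with it, changed by -0.64. Likewise Atp5a1 changed by 0.40 and Haus1, with 129 shared bases, by -1.49, and Ndufa11 by 0.48 and Vmac, with 70 shared bases, by -0.77. Other partners were higher along with the member. Ndufb5 changed by 0.27 and Mrpl47, with 616 shared bases, by 0.46, and Atp5pb by 0.43 and Wdr77, with 337 shared bases, by 0.38. The part of shared bases in these changes was not tested.

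The rest of the pathway was counted from lists of genes outside the symbol rule, beside 33.9% higher and 35.2% lower among all genes tested. Complex II, which also serves the citric acid cycle, had 4 of 6 tested genes higher and 1 lower, with a median log2 change of 0.19 that turned to -0.05 with deposited totals. Its iron-sulphur subunit Sdhb changed by 0.72 ± 0.08 (adjusted p = 4.33e-06, edgeR), while its flavoprotein Sdha, at 301, 299.8 and 293 CPM in CCL7 libraries and 307, 311 and 314 CPM in Ctrl libraries, had a log2 change of -0.06 ± 0.02 that did not pass (adjusted p = 0.231, edgeR). Sdha was lower with deposited totals (-0.30, adjusted p = 9.94e-05), quantile normalization (-0.26) and cyclic loess (-0.21). The assembly factor Sdhaf4 changed by -0.40 ± 0.15 (adjusted p = 0.022, edgeR) with overlapping groups, and no longer passed without CCL7 replicate 1 or 3 or without Ctrl replicate 1 or 3 (adjusted p of 0.0678 to 0.0892). The higher genes included another assembly factor, Sdhaf2, and Sdhc, which passed narrowly (0.13, adjusted p = 0.049, edgeR). Sdhc did not pass without CCL7 replicate 2 or any 1 of the Ctrl libraries (adjusted p of 0.0628 to 0.142). Quantile normalization, cyclic loess and upper-quartile scaling also ended its call. Cycs, which encodes cytochrome c, had 114, 128 and 99.0 CPM in CCL7 libraries and 41.5, 37.9 and 36.9 CPM in Ctrl libraries. Its log2 change of 1.55 ± 0.12 (adjusted p = 1.01e-07, edgeR) was above that of every member, and Cyc1, the cytochrome c1 subunit of complex III, changed by 0.95 ± 0.06 (adjusted p = 1.48e-07, edgeR).

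Assembly factors were mixed, in small lists to be read beside the 33.9% higher and 35.2% lower among all genes tested. For the ATP synthase, Atpaf1, the chaperone of the beta subunit, had 4.70, 5.23 and 5.32 CPM in CCL7 libraries and 9.10, 9.37 and 9.62 CPM in Ctrl libraries, a log2 change of -0.88 ± 0.06 (adjusted p = 2.01e-05, edgeR) opposite in sign to Atp5b. Atpif1, the inhibitor of ATP hydrolysis, changed by -0.44 ± 0.07, and Atpaf2, the chaperone of the alpha subunit, by 0.24 ± 0.03. Of 6 complex I assembly genes outside the Ndufaf group, 2 were higher and 3 lower, from Ecsit at 0.62 to Nubpl at -0.38. The higher count was 1 without CCL7 replicate 1 or 2 or without any 1 of the Ctrl libraries. Of the lower genes, Tmem126b passed narrowly (-0.15, adjusted p = 0.0348, edgeR). Its call was lost without CCL7 replicate 1 or 3 or any 1 of the Ctrl libraries (adjusted p of 0.057 to 0.133). It did not pass by DESeq2 (adjusted p = 0.0874), nor with quantile normalization or cyclic loess. Of 5 complex III assembly genes tested, 3 were higher and 1 lower (0 without CCL7 replicate 1), from Ttc19 at 0.70 to Bcs1l at -0.44. Of 14 complex IV assembly genes tested, 8 were higher and none was lower (0 at an unadjusted p under 0.05, 0 by DESeq2 and 3 by limma on log2(FPKM + 1)). They ranged from Coa5 at 0.84 to Cox15, an enzyme of heme A synthesis, at -0.10, which did not pass (adjusted p = 0.16, edgeR). Cox15 was lower with deposited totals (-0.33, adjusted p = 0.000381), upper-quartile scaling (-0.18, adjusted p = 0.0203) and a mean FPKM of at least 5 (-0.16, adjusted p = 0.0267), all by edgeR. The calls of Nubpl and Bcs1l were lost with quantile normalization and cyclic loess (adjusted p of 0.08 to 0.224), and that of Atpaf2 with deposited totals (0.00, adjusted p = 0.961).

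The subunits made inside the mitochondrion did not follow the nuclear ones. Of the 13 mitochondrially encoded subunits, none was higher, 3 were lower (mt-Nd5, mt-Nd6 and mt-Cytb) and 10 did not pass. Among all genes tested, 33.9% were higher and 35.2% were lower. Deposited totals gave 8 of the 13 lower, but also 53.4% of all genes. In the higher direction there were 0 at an unadjusted p under 0.05, 0 by DESeq2 and 0 by limma on log2(FPKM + 1). Without CCL7 replicate 2, however, 1 was higher (mt-Co3, log2 change 0.38, adjusted p = 0.0213, edgeR) and 5 were lower, and with no filter on low genes mt-Co1 (0.12) and mt-Co3 (0.24) were higher. The call of mt-Nd5, whose log2 change was -0.12, was lost without CCL7 replicate 1 or 3 or without Ctrl replicate 2 or 3 (adjusted p of 0.0577 to 0.087). Their median log2 change was -0.12, and they ranged from -0.67 for mt-Nd6 to 0.20 for mt-Co3. mt-Cytb, the only complex III subunit of the mitochondrial genome, had 1569.6, 1631 and 1598 CPM in CCL7 libraries and 1944, 2014 and 2054 CPM in Ctrl libraries, a log2 change of -0.33 ± 0.03 (adjusted p = 5.19e-05, edgeR). The CCL7 libraries were all below the Ctrl libraries, the reverse of all 8 nuclear complex III genes. As a share of counts the 13 genes took 1.52 ± 0.0095% in CCL7 and 1.82 ± 0.0856% in Ctrl libraries (SD, n = 3 each). With TMM scaling their summed level overlapped between groups, at 16347 to 16750 CPM in CCL7 and 15952 to 17553 CPM in Ctrl libraries.

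Among known regulators of mitochondrial biogenesis, 4 of 11 tested were higher and 4 were lower, shares near those of all genes (33.9% higher and 35.2% lower). Ppargc1b, a coactivator of respiratory genes, had 11.1, 9.92 and 12.7 CPM in CCL7 libraries and 3.08, 2.52 and 1.96 CPM in Ctrl libraries. The groups were far apart, with a log2 change of 2.16 ± 0.21 (adjusted p = 8.66e-07, edgeR). Esrra, the nuclear receptor that works with it, changed by 1.09 ± 0.03 (adjusted p = 1.13e-08, edgeR) and Pprc1, a related coactivator, by 1.06 ± 0.08 (adjusted p = 2.77e-07, edgeR). The factors whose motifs were searched were not higher. Nrf1 changed by -0.07 ± 0.05 (adjusted p = 0.368, edgeR) and Yy1 by -0.07 ± 0.02 (adjusted p = 0.197, edgeR). Both were lower with deposited totals (-0.30 and -0.31) and with upper-quartile scaling (-0.15 and -0.16). Yy1 was also lower with quantile normalization (-0.19), cyclic loess (-0.14) and a mean FPKM of at least 5 (-0.13). Gabpa, the DNA-binding subunit of GABP, had 41.9, 39.4 and 38.4 CPM in CCL7 libraries and 60.5, 62.6 and 63.3 CPM in Ctrl libraries (log2 change -0.64 ± 0.04, adjusted p = 1.85e-06, edgeR).

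Among factors that act on mitochondrial DNA or its transcripts, Tfam, Tfb1m and Tfb2m were lower. Tfam, which packages mitochondrial DNA, had 23.7, 21.8 and 19.6 CPM in CCL7 libraries and 31.6, 30.5 and 30.4 CPM in Ctrl libraries, with no overlap and a log2 change of -0.50 ± 0.08 (adjusted p = 0.000127, edgeR). Tfb1m and Tfb2m changed by -0.75 and -0.28, and Polrmt, the mitochondrial RNA polymerase, by 0.21 (adjusted p = 0.0181, edgeR), which turned to -0.03 with deposited totals. Polrmt did not pass without Ctrl replicate 1 or 3 (adjusted p of 0.0663 to 0.0672), nor Tfb2m without CCL7 replicate 3 or Ctrl replicate 3 (adjusted p of 0.0512 to 0.0688). Gabpb1 did not pass at -0.08, and Ppargc1a, the coactivator known from muscle and brown fat, had 4 counts in CCL7 and 32 in Ctrl libraries and was not tested.

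**Figure D5:**
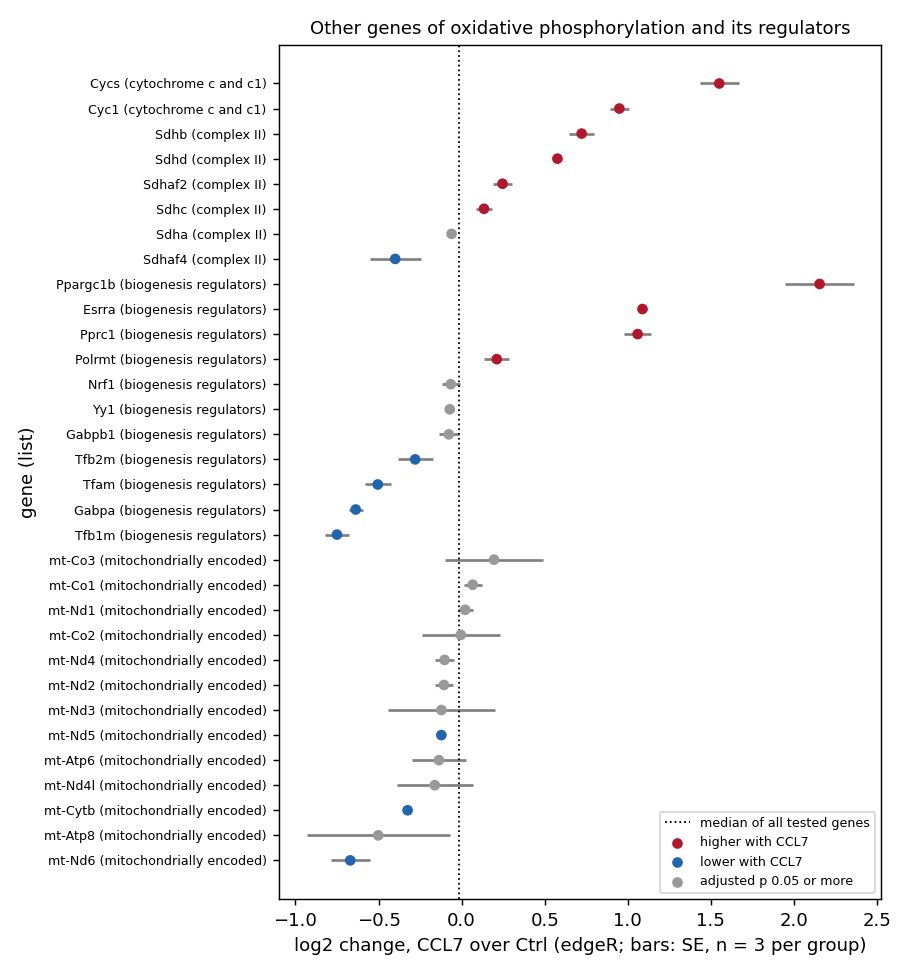
Log2 change (CCL7 over Ctrl, horizontal axis) with SE of cytochrome c and c1, complex II, the biogenesis regulators and the mitochondrially encoded subunits, coloured by call, with the dotted line at the median of all genes tested. Ppargc1b at 2.16 and Cycs at 1.55 lie farthest to the right, and Tfb1m at -0.75 farthest to the left.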

How the data were processed

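RNA was measured in 6 libraries, 3 CCL7 and 3 Ctrl, grouped by their titles. The authors deposited whole-number read counts per gene, without normalization, and FPKM. FPKM as deposited is each count divided by gene length and by the library's total, as read from the values. The tool Bowtie (version 0.12.2) is listed, per the submitters' processing notes, beside the builds mm9 and mm8, without saying what either was used for. Which program counted the reads, by which annotation and with what strand setting is not given in the sources used here. GENCODE M21 (GRCm38), matched by gene identifier, gave the coordinates.

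Counts were tested with edgeR 4.0.16 in R 4.3.3 (2-sided quasi-likelihood test, with TMM factors and a model of group alone) over the 11143 genes whose FPKM averaged 1 or more, with Benjamini-Hochberg adjustment over all of them and a threshold of 0.05. Genes below that level were taken from a fit without it. Log2 changes are CCL7 over Ctrl. SEs come from the SDs of log2(CPM + 0.1) in the 3 libraries of each group. Replicates varied by 6.81% beyond counting error (edgeR's common biological coefficient of variation). The script was tested on simulated data with known changes. It recovered 25 of 80 changes of 1.2-fold, 54 of 55 of 1.5-fold and 62 of 65 of 2-fold, with 6 false calls. Far fewer genes changed there than in these data, so the simulation could not check the scaling. Alternatives were other scalings, DESeq2 1.42.0, limma 3.58.1 on log2(FPKM + 1), other filters, halved counts, a length correction, a replicate block and leaving out each library.

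Members, lists and the motifs were chosen with earlier results of these data known. Named with full values were, in each of 6 groups, the 2 highest and 2 lowest tested members by log2 change, the member with the highest FPKM and the isoform families. Other members are named from the lists of calls. The values of 1 core subunit of complex I, which is in the counts, are not reported here. Replicate numbers gave no sign of pairing: the deviations of same-numbered libraries correlated at -0.10, -0.04 and -0.03. Such values cannot show that the libraries were unpaired, and the labels do not say.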

Additional observations from a re-analysis of the deposited data

How the results depend on the processing

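Deposited library totals gave 42 members higher, 8 lower and a median log2 change of 0.17. Limma on log2(FPKM + 1) gave 44 higher, 8 lower and 0.16, and upper-quartile scaling gave a median of 0.32 (all genes -0.10). Among reported genes called with either setting, signs turned with deposited totals for Ndufs1 (-0.035), Ndufv1 (-0.10), Ndufa1 (-0.028), Ndufa4 (-0.23), Cox7a2l (-0.071), Atp5e (-0.019), Atp5h (-0.0049), Sdhc (-0.10), Timmdc1 (-0.052), Surf1 (-0.19), Tmem70 (-0.16), mt-Nd1 (-0.22), mt-Co1 (-0.17) and Polrmt (-0.026). With limma on log2(FPKM + 1) they turned for Ndufs1 (-0.032), Ndufv1 (-0.096), Ndufa1 (-0.028), Ndufa4 (-0.23), Cox7a2l (-0.074), Atp5e (-0.023), Atp5h (-0.005), Sdhc (-0.10), Timmdc1 (-0.045), Surf1 (-0.18), Coa6 (-0.19), Tmem70 (-0.15), mt-Nd1 (-0.22), mt-Co1 (-0.17) and Polrmt (-0.024). A further 13 and 12 genes called in neither fit turned, among them Atp5k, Ndufs8 and mt-Co3. With quantile normalization signs of called genes turned for Cox7a2l (-0.018) and mt-Nd1 (-0.52), and with cyclic loess for mt-Nd1 (-0.22) and mt-Co1 (-0.29). The cause was not tested. Leaving out each library in turn gave 60 to 73 members higher, 3 to 4 lower and medians of 0.36 to 0.46. With the replicate number as a block, 66 members were higher and 4 lower, with a median of 0.40. A mean FPKM of at least 5 left 75 members, 57 of them higher and 2 lower, and no filter gave 76 higher and 2 lower. Of the 69 members that were higher, 63 kept a positive change and 41 also kept their call under each of 17 settings, the stricter filter left out. Without the settings that use library totals, 55 kept their call. Depth was not limiting for most members, but Cox6a2, Cox7a1, Ndufb4c and the other entries near 1 CPM rest on few counts. With 3 libraries per group, changes near 0.2 on the log2 scale lie close to the threshold.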

Other observations

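AA467197, chosen after its values were seen, encodes a paralogue of Ndufa4 that in human cells can take its place in complex IV. It had 6.18, 7.47 and 6.52 CPM in CCL7 libraries and 2.69, 2.59 and 2.93 CPM in Ctrl libraries, from 854 and 340 counts. The groups did not overlap, and the log2 change was 1.30 ± 0.10 (SE; n = 3 in each group; adjusted p = 8.64e-06, edgeR), while Ndufa4 had a log2 change of 0.00. Of the 12 pseudogene entries left out by the symbol rule, 7 were tested with edgeR, 3 were higher and 4 did not pass, with log2 changes of -0.56 to 0.89.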
